A study of Homo sapiens with 12 samples.

Results

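HMOX1 encodes haem oxygenase 1, the inducible enzyme that opens haem to biliverdin, carbon monoxide and iron. Its RNA is described here with that of 8 genes of the KEAP1-NRF2 antioxidant pathway: NFE2L2, KEAP1, NQO1, GCLM, GCLC, TXNRD1, SLC7A11 and SRXN1. The 9 genes were picked by name from the 60106 genes of each count table, with the siFOXA1 against NSI values of these libraries already known. Those values are therefore given as a description, without a test. RNA was sequenced from PC3 and VCaP, 2 established lines of human prostate cancer cells, 72 hours after transfection with an siRNA against FOXA1 (siFOXA1) or a non-targeting siRNA (NSI). FOXA1 is a forkhead transcription factor that opens chromatin in luminal prostate cells. Each line had 3 NSI and 3 siFOXA1 libraries, and the labels do not say that replicates were separate cultures, so p-values may measure only technical spread. PC3 grew in RPMI with 20 nM siRNA and was sequenced from polyadenylated RNA. VCaP grew in DMEM with 40 nM siRNA and was sequenced from total RNA. A difference between the lines cannot be told apart from dose, medium, library kit or the counting by strand. The title of the study names the effect of FOXA1 on splicing genes and splicing, and the genes described here are outside that question.

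NRF2, the product of NFE2L2, is the transcription factor that answers oxidants and electrophiles. KEAP1 holds it for ubiquitination by a CUL3 ligase and so keeps it low until its cysteines are modified. Freed NRF2 enters the nucleus, pairs with small MAF proteins and binds antioxidant response elements near genes for haem breakdown, quinone reduction, glutathione synthesis and the thioredoxin system, while BACH1 competes with it, most of all at HMOX1. In prostate cancer cells these enzymes buffer oxidants and detoxify drugs.

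The library totals were 123140099 to 188226483 counts in PC3 and 48187047 to 59839211 in VCaP. FOXA1 itself was at 62.3% of its NSI mean in PC3 siFOXA1 and at 16.5% in VCaP siFOXA1, with no overlap between the groups (exact permutation test, two-sided, p = 0.1 in each line, the smallest p that 3 against 3 libraries allow). The 4 epithelial markers were each above 1 CPM (counts scaled to the size of the library) in all groups. Mitochondrial genes held 13.1% to 15.7% of the PC3 counts and 3.02% to 4.69% of the VCaP counts.

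The promoter windows of 3 of the genes show what the antioxidant response element looks like. RefSeq windows on GRCh38.p14, from 250 bases before to 50 bases after a start site, were found for 7 of the 9 genes (10 windows), and HMOX1 and SLC7A11 had no entry. The core TGACNNNGC, searched on both strands, was present in 4 of the 10 windows, those of GCLM, KEAP1 and TXNRD1 (2 windows), against 13.3% of 35116 windows of the same length. The windows below are read 5′ to 3′ in the direction of the gene, and the capitals mark the core, printed as its reverse complement where it lies on the opposite strand.
GCLM promoter, chr1:93909381-93909680, minus strand: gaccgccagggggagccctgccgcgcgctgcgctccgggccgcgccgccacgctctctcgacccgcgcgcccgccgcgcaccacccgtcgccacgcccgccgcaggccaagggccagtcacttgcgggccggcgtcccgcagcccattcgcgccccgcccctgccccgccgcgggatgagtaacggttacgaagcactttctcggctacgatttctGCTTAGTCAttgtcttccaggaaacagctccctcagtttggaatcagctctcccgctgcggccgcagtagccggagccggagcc
KEAP1 promoter, chr19:10502722-10503021, minus strand: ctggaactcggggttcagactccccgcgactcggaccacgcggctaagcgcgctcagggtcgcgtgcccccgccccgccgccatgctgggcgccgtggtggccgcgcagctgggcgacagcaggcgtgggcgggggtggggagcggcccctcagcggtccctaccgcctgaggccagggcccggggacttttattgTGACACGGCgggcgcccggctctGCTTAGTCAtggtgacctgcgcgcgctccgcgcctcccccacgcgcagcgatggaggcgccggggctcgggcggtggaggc
TXNRD1 promoter, chr12:104286782-104287081, plus strand: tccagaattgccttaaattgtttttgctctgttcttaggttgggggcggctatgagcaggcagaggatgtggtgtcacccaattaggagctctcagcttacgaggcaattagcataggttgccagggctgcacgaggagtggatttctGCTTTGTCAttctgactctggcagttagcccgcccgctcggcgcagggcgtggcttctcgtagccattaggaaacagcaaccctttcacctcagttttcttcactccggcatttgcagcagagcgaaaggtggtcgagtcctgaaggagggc
GCLM and KEAP1 carry the same core, TGACTAAGC, on the strand opposite to the gene. Its first base on the printed strand lies 34 bases before the start site in GCLM and 31 bases before it in KEAP1. KEAP1 has a further core, TGACACGGC, on its own strand 54 bases before the start. The TXNRD1 core, TGACAAAGC, lies on the opposite strand 102 bases before the start, and the other TXNRD1 window holds TGACTTCGC and TGACGGAGC. The windows of NFE2L2, NQO1, GCLC and SRXN1 did not hold the core. With the looser form TGANNNNGC, 6 of the 10 windows (5 of the 7 genes) had a match, and 41.8% of all windows did. TGTTTAC, a forkhead core, was in 0 of the 10 windows and in 3.42% of all windows, and TGACTCA, the AP-1 core, in 0 and 4.95%. A match is a string of letters in the reference, and these data hold no measurement of binding.

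In PC3 the siFOXA1 libraries lay wholly above the NSI libraries for 3 genes, HMOX1, NQO1 and GCLM, and wholly below for SRXN1. Over the 26478 genes tested in PC3, 22.4% lay wholly above and 22.7% wholly below, 45.1% in all. The remaining 5 genes overlapped, and the median log2 fold change of the 9 was −0.05, beside −0.01 over all genes tested. In VCaP 7 of the 9 lay wholly above, SRXN1 lay wholly below, and KEAP1 overlapped. Over the 22939 genes tested in VCaP, 27.9% lay wholly above and 28% wholly below, 55.9% in all. The median log2 fold change in VCaP was 0.72, beside 0.02 over all genes tested. All 9 genes passed the filter on low counts in both lines.

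**Figure D1:**
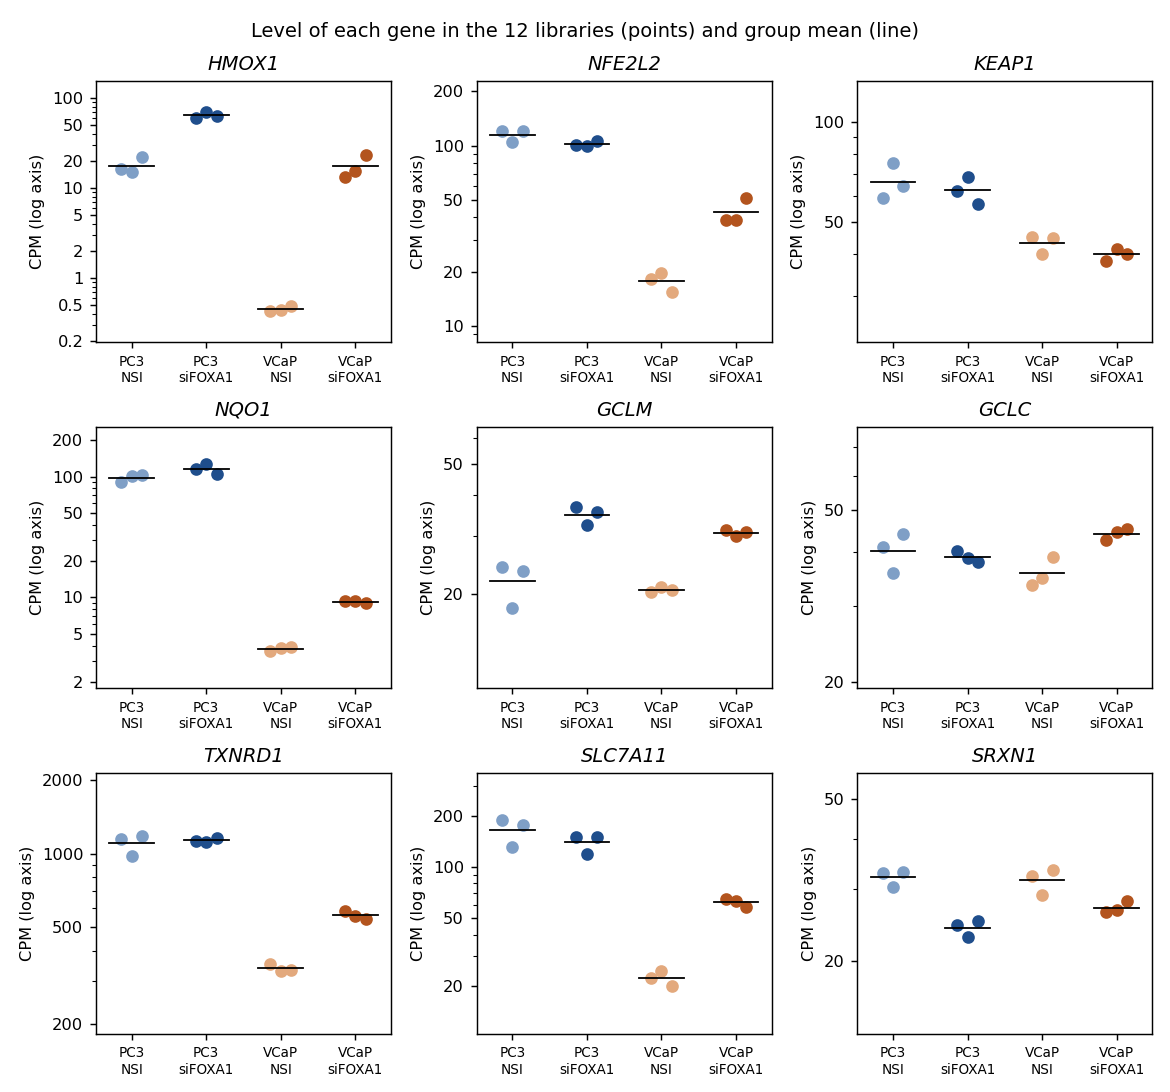
Level of each of the 9 genes in CPM (log axis) in the 12 libraries, with a point for each library and a line at the mean of each group of 3. HMOX1 in VCaP NSI sits between 0.424 and 0.487 CPM, and 7 of the 9 genes have all 3 VCaP siFOXA1 points above all 3 VCaP NSI points.

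The regulators come first. NFE2L2 (chromosome 2, 178095033 to 178257425, minus strand, GRCh37 as for all gene positions here) was at 121, 105 and 120.2 CPM in PC3 NSI and at 101, 99.7 and 107 CPM in PC3 siFOXA1. These groups overlapped, with a log2 fold change of −0.17 (SE 0.09). By replicate number, which was taken to pair the PC3 libraries, NFE2L2 was lower in siFOXA1 in 3 of 3 pairs (−0.17 with the block, SE 0.063). The VCaP libraries held 18.2, 19.8 and 15.3 CPM (NSI) and 38.9, 38.5 and 51.2 CPM (siFOXA1). All 3 VCaP siFOXA1 libraries were above all 3 NSI libraries, 2.41-fold by the means, with a log2 fold change of 1.27 (SE 0.13). Replicate 3 was the highest of the siFOXA1 libraries, and without it the log2 fold change was 1.12. NRF2 is controlled mainly by protein turnover, which RNA does not measure.

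KEAP1 (chromosome 19, 10596796 to 10614417, minus strand), the sensor, did not separate in either line. It spanned 58.9 to 75.5 CPM in PC3 NSI, 56.5 to 68.4 in PC3 siFOXA1, 40.1 to 45.1 in VCaP NSI and 38.3 to 41.5 in VCaP siFOXA1. The log2 fold changes were −0.09 (SE 0.12) in PC3 and −0.12 (SE 0.06) in VCaP. The PC3 sign was not stable, at 0.06 without NSI replicate 2 and 0.0017 with library size alone as the scaling.

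HMOX1 (chromosome 22, 35776828 to 35790207, plus strand) had the largest difference of the 9 genes in each line. The PC3 libraries held 16.1, 15.0 and 21.8 CPM (NSI) and 60.0, 70.2 and 63.4 CPM (siFOXA1). The lowest siFOXA1 library was thus well above the highest NSI library, and the means were 17.6 ± 3.68 and 64.6 ± 5.21 CPM (SD, n = 3 each), 3.66-fold apart. The log2 fold change was 1.87 (SE 0.15), and it stayed between 1.81 and 2.05 when each library was left out in turn.

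In VCaP HMOX1 started from a far lower level, at 0.424, 0.438 and 0.487 CPM in NSI, which are 22, 22 and 28 counts. The siFOXA1 libraries held 13.3, 15.3 and 23.3 CPM, or 670, 770 and 1223 counts. These values lay on both sides of the PC3 NSI mean, on CPM scaled within each line. The VCaP means were 0.450 ± 0.0329 and 17.3 ± 5.28 CPM (SD, n = 3 each), 38.5-fold apart, and the log2 fold change was 5.26 (SE 0.26). Replicate 3 was the highest siFOXA1 library here too, as for NFE2L2, and without it the log2 fold change was 4.98. The VCaP effect minus the PC3 effect was 3.37 (SE 0.31) on the log2 scale, and 3.10 without that library. FOXA1 was lowered further in VCaP than in PC3, and the part of that in the HMOX1 difference was not tested.

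Macrophages are rich in HMOX1, so their markers were read beside it. The summed level of 8 macrophage markers was 27.8 to 30.9 CPM in PC3 NSI and 45.9 to 51.6 CPM in PC3 siFOXA1. Nearly all of it was CD68, a lysosomal protein that other cells also make, with means of 28.3 and 46.1 CPM. In each PC3 group 6 of the 8 markers were under 1 CPM, and CD163 was at 0 in all 3 siFOXA1 libraries. In VCaP the sum was 1.13 to 1.60 CPM in NSI and 2.94 to 3.51 CPM in siFOXA1. It was led by CD14 at means of 0.704 and 2.73 CPM, with AIF1 at 0 in NSI and MARCO at 0 in siFOXA1. The VCaP means of PTPRC (0.113 and 0.0196 CPM), LYZ (0.245 and 0.138 CPM) and MARCO were lower in siFOXA1, and those of the other markers were higher. Of the 8 markers, 8 were under 1 CPM in VCaP NSI and 7 in VCaP siFOXA1. The part of these markers in the HMOX1 difference was not tested. In such bulk libraries, more cells with HMOX1 and more HMOX1 RNA per cell cannot be told apart. The 4 erythroid markers, read because red-cell precursors make much haem, were each under 1 CPM in all groups.

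NQO1 (chromosome 16, 69740899 to 69760854, minus strand), a quinone reductase often used as a marker of NRF2 activity, was at 89.7, 101 and 104 CPM in PC3 NSI and 115, 127 and 104 CPM in PC3 siFOXA1. The PC3 groups did not overlap, but the highest NSI library, at 103.7 CPM, was just under the lowest siFOXA1 library, at 104.4 CPM. The log2 fold change in PC3 was 0.24 (SE 0.10). VCaP held far less NQO1, at 3.62, 3.81 and 3.89 CPM (NSI) and 9.41, 9.32 and 9.02 CPM (siFOXA1). The 3 libraries of each VCaP group lay close together and the groups were 2.45-fold apart, with a log2 fold change of 1.29 (SE 0.09). Exons of NQO1 overlap a gene on the other strand, CTD-2033A16.1, over 18.4% of their length. The PC3 counts ignored strand, and CTD-2033A16.1 itself was at 4.98 to 6.23 CPM in the PC3 libraries.

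Glutathione synthesis is represented by 3 genes. GCLM (chromosome 1, 94350761 to 94375012, minus strand), the modifier subunit of glutamate-cysteine ligase, was at 24.1, 18.1 and 23.4 CPM in PC3 NSI and at 36.9, 32.4 and 35.5 CPM in PC3 siFOXA1. Its VCaP values were 20.3, 20.9 and 20.5 CPM (NSI) and 31.4, 30.0 and 30.9 CPM (siFOXA1). GCLM was thus higher in siFOXA1 without overlap in both lines and by a like amount, with log2 fold changes of 0.67 (SE 0.12) in PC3 and 0.58 (SE 0.06) in VCaP. The difference between the effects was −0.11 (SE 0.14), and the levels themselves were close between the lines on CPM scaled within each line. As TPM (explained below), the GCLM means were 7.89 in PC3 NSI and 3.53 in VCaP NSI, above 60.7% and 61.8% of protein-coding genes. TPM of the lines differ in the library kit and the counting by strand.

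GCLC (chromosome 6, 53362139 to 53413004, minus strand), the catalytic subunit of the same ligase, overlapped in PC3, at 35.7 to 44.0 CPM (NSI) and 37.9 to 40.3 CPM (siFOXA1). Its PC3 log2 fold change of −0.05 (SE 0.10) turned to 0.04 with library size alone, 0.01 with upper-quartile factors and 0.02 without NSI replicate 3. VCaP held 33.5 to 38.8 CPM (NSI) and 42.6 to 45.0 CPM (siFOXA1), a log2 fold change of 0.30 (SE 0.07). In both lines the log2 fold change of GCLC was smaller than that of GCLM, a difference that was not tested.

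SLC7A11 (chromosome 4, 139085251 to 139163503, minus strand) is the cystine import subunit of system xc-, which feeds glutathione synthesis and is also a target of the stress factor ATF4. It was at 188, 130.2 and 176 CPM in PC3 NSI and 149.8, 119 and 150.2 CPM in PC3 siFOXA1. Replicate 2 was the lowest library of each PC3 group, and the groups overlapped, with a log2 fold change of −0.24 (SE 0.15). SLC7A11 was lower in siFOXA1 in 3 of 3 pairs (−0.23 with the block, SE 0.064). Its VCaP values were 22.4, 24.3 and 19.9 CPM (NSI) and 65.2, 62.7 and 58.1 CPM (siFOXA1). The VCaP groups were far apart, 2.79-fold by the means, with a log2 fold change of 1.48 (SE 0.08), the largest after HMOX1. The VCaP effect minus the PC3 effect was 1.71 (SE 0.19).

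The thioredoxin system is represented by TXNRD1 and SRXN1. TXNRD1 (chromosome 12, 104609557 to 104744083, plus strand), the cytosolic thioredoxin reductase, was at 1144, 974 and 1185 CPM in PC3 NSI and 1129.5, 1121 and 1161 CPM in PC3 siFOXA1. The PC3 siFOXA1 libraries fell inside the NSI range, with a log2 fold change of 0.05 (SE 0.10). The VCaP libraries held 352, 331 and 335 CPM (NSI) and 582, 554 and 539.8 CPM (siFOXA1), a log2 fold change of 0.72 (SE 0.07).

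SRXN1 (chromosome 20, 627259 to 634014, minus strand), which repairs over-oxidised peroxiredoxins, went the other way. It was at 32.9, 30.4 and 33.1 CPM in PC3 NSI and 24.5, 22.9 and 25.0 CPM in PC3 siFOXA1. Its VCaP values were 32.4, 29.1 and 33.6 CPM (NSI) and 26.5, 26.7 and 28.1 CPM (siFOXA1). SRXN1 alone of the 9 genes was lower in siFOXA1 without overlap in both lines, with log2 fold changes of −0.41 (SE 0.08) in PC3 and −0.23 (SE 0.07) in VCaP. Its value is uncertain, because 85.0% of its exon length is shared with another gene model on the same strand, and fragments of both were divided between them. The mean of that model was 31.9 (NSI) and 24.0 (siFOXA1) CPM for PC3 and 31.5 and 26.7 CPM for VCaP, almost the values of SRXN1.

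**Figure D2:**
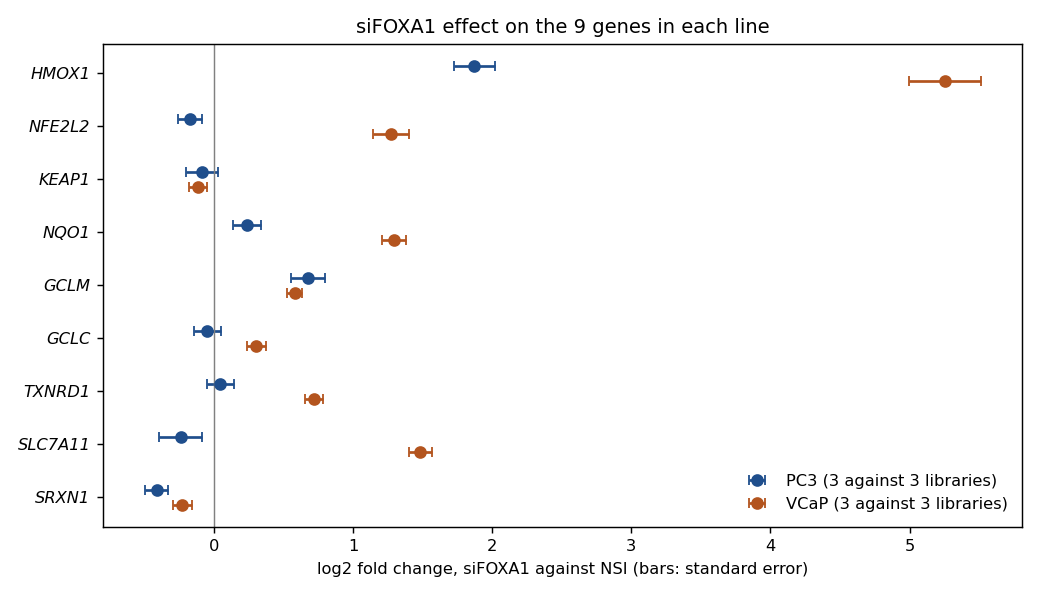
The log2 fold change of siFOXA1 against NSI for each of the 9 genes in PC3 and in VCaP, from 3 against 3 libraries, with bars of 1 standard error. HMOX1 lies far to the right in both lines (1.87 and 5.26), GCLM nearly coincides (0.67 and 0.58), SRXN1 is below 0 in both, and NFE2L2 and SLC7A11 are below 0 in PC3 and above 1 in VCaP.

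Levels between genes were compared per exon length, as TPM (counts per exon length, scaled to the same total in each library). In PC3 NSI the order was TXNRD1 (mean 386 TPM), NQO1 (55.5), NFE2L2 (45.0), KEAP1 (37.0), SLC7A11 (30.2), SRXN1 (21.1), HMOX1 (17.2), GCLC (11.2) and GCLM (7.89). Of these neighbours, NFE2L2 and KEAP1, KEAP1 and SLC7A11, and SRXN1 and HMOX1 overlapped in their ranges over the 3 libraries. In PC3 siFOXA1 HMOX1 stood in place 3 at 68.9 ± 4.11 TPM (SD, n = 3), where its range overlapped that of NQO1 at 72.0 ± 6.16 TPM (SD, n = 3).

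In VCaP NSI the order was TXNRD1 (56.5 TPM), KEAP1 (11.5), SRXN1 (9.84), GCLC (4.69), GCLM (3.53), NFE2L2 (3.33), SLC7A11 (1.95), NQO1 (1.01) and HMOX1 (0.207). GCLM and NFE2L2 overlapped there and the other neighbours did not. HMOX1 in VCaP NSI was above 35.4% of protein-coding genes by mean TPM. In VCaP siFOXA1 it stood in place 5 at 7.16 ± 1.46 TPM (SD, n = 3), above 78.0% of protein-coding genes, and its range overlapped that of NFE2L2 at 7.19 TPM. NQO1 was then the lowest of the 9, at 2.28 TPM.

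**Figure D3:**
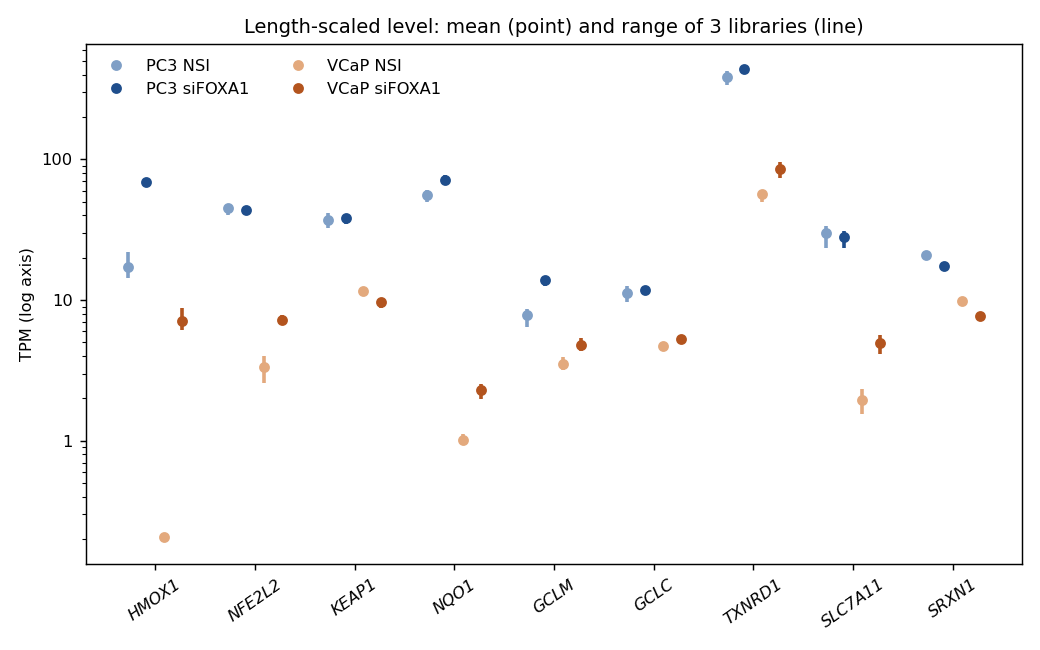
Level of the 9 genes in TPM (log axis) in the 4 groups, with the mean as a point and the range of 3 libraries as a line. TXNRD1 is the highest gene in all 4 groups, and HMOX1 covers the widest span, from 0.207 TPM in VCaP NSI to 68.9 TPM in PC3 siFOXA1. This span crosses the lines, so it cannot be told apart from the library kit and the counting by strand.

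The lines were also compared without FOXA1 siRNA. The genes were picked with the siFOXA1 against NSI values known, and those values hold the same NSI libraries. The p-values of this contrast are therefore not free of that choice. In NSI libraries 6 of the 9 genes were lower in VCaP than in PC3 by edgeR's quasi-likelihood test (an adjusted p under 0.05, termed a call below), and 0 were higher. Over all 28170 genes tested, 87% were called, 44.6% lower and 42.4% higher in VCaP. HMOX1 had a log2 difference of −5.29 (SE 0.21, edgeR adjusted p = 5.51e-10) and NQO1 one of −4.70 (SE 0.11, edgeR adjusted p = 1.35e-11). SLC7A11 was at −2.90 (edgeR adjusted p = 6.97e-09), NFE2L2 at −2.70 (1.91e-09), TXNRD1 at −1.70 (1.21e-07) and KEAP1 at −0.61 (0.000216), with all 3 VCaP libraries below all 3 PC3 libraries for each. GCLM (−0.09, edgeR adjusted p = 0.481), GCLC (−0.18, 0.149) and SRXN1 (−0.02, 0.841) were not called. Their adjusted p under 11 alternative settings spanned 0.0103 to 0.895 (GCLM), 0.0098 to 0.461 (GCLC) and 0.0132 to 0.951 (SRXN1) by edgeR or DESeq2. Upper-quartile scaling moved the median of all genes from −0.07 to 0.22, and GCLM, GCLC and SRXN1 then stood at 0.20, 0.12 and 0.27. The NSI libraries used here are also the controls of the siFOXA1 comparisons, so the low VCaP levels and the larger VCaP effects share data.

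Other genes of the pathway were read from 11 lists of 124 further genes (some genes stand in more than 1 of them), which were also drawn up with earlier results of these data known. Their counts stand beside those of all genes as a description of the lists, and each adjusted p is over all genes tested. In VCaP 75 of 119 tested (63%) were called, 45 higher and 30 lower, beside 45.8% of all genes (22.5% higher and 23.3% lower). In PC3 39 of 120 (32.5%) were called, 11 higher and 28 lower, beside 27.7% of all genes (13.9% in each direction). The PC3 count depended on single libraries, with 13 calls without siFOXA1 replicate 1, 16 without NSI replicate 3, 20 without siFOXA1 replicate 3 and 24 without NSI replicate 1. In PC3, where the replicate numbers were taken to pair the libraries, the fit with the number as a block called 70, 20 higher and 50 lower. The PC3 split also followed the scaling, with 16 higher and 13 lower under library size alone and 15 higher and 14 lower under upper-quartile factors. For all genes the share of PC3 calls that were higher was 50.0% with the main scaling, 64.3% with library size alone.

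Of the 35 further NRF2 targets, 32 were tested in VCaP, where 14 were higher and 4 lower, with a median log2 fold change of 0.33. AKR1C1, an aldo-keto reductase, rose there, with means of 1.73 ± 0.274 and 12.1 ± 2.04 CPM (SD, n = 3 each; log2 fold change 2.80, edgeR adjusted p = 1.55e-06). CYP4F11, a fatty acid hydroxylase, rose by 2.06 (edgeR adjusted p = 9.60e-07). In PC3 5 of 33 were higher and 9 lower, with a median of −0.00, and the block gave 7 and 14. The lower count was 2 to 5 without siFOXA1 replicate 1, siFOXA1 replicate 3 or NSI replicate 3, and 4 under library size alone or upper-quartile factors. The higher count was 2 without NSI replicate 1 or 3 and without siFOXA1 replicate 1 or 2. AKR1C3 rose in both lines, by 1.24 in PC3 (edgeR adjusted p = 0.00042) and 1.21 in VCaP (3.70e-06), while AKR1C2 fell by 1.06 in PC3 (0.000746) and rose by 1.52 in VCaP (7.58e-05). The AKR1C genes are near-identical copies, so their counts may be split between them. GSR, the glutathione reductase, fell in PC3 (−0.74, edgeR adjusted p = 0.000442) and rose in VCaP (0.52, 0.000107).

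Genes that act beside HMOX1 in haem and iron handling differed in direction. HMOX2, the constitutive isoenzyme, was at 10.5 to 11.0 CPM in VCaP NSI and 11.3 to 11.8 CPM in VCaP siFOXA1 (log2 fold change 0.10, edgeR adjusted p = 0.284), and overlapped in PC3 (−0.06, 0.782). BLVRA, a biliverdin reductase, had means of 16.1 ± 0.767 CPM for VCaP NSI and 10.2 ± 1.06 CPM for VCaP siFOXA1 (SD, n = 3 each), a fall (−0.66, edgeR adjusted p = 0.000329). In PC3 BLVRA was at −0.34 (edgeR adjusted p = 0.0665), and at −0.33 with the block (0.00277). BLVRB was not called in either line, at 0.15 in PC3 (edgeR adjusted p = 0.564) and 0.07 in VCaP (0.636). ABCG2, an exporter of porphyrins and drugs, had the largest rise of the listed genes named by the rule for VCaP, with means of 1.04 ± 0.297 and 63.8 ± 1.62 CPM (SD, n = 3 each; 5.93, edgeR adjusted p = 1.91e-08), and was under the filter in PC3. FLVCR1, a haem exporter, fell in VCaP by 0.97 (edgeR adjusted p = 3.02e-06), and SLC48A1, a haem transporter, rose in PC3 by 0.43 (0.00581). FTH1 and FTL encode the ferritin chains that store the iron freed from haem. FTH1 rose in VCaP from 25.0, 28.7 and 23.0 CPM to 51.5, 50.5 and 94.3 CPM (1.36, edgeR adjusted p = 0.000881), highest in the same replicate 3 as HMOX1 and NFE2L2. FTL fell there by 0.80 (edgeR adjusted p = 6.44e-05). FTH1 and FTL have pseudogenes, so these values are uncertain. The exons of FTH1 overlap BEST1 on the other strand over 56.6% of their length. This touches the PC3 counts, where strand was ignored. The PC3 means of BEST1 were 4196 (NSI) and 4267 (siFOXA1) CPM, beside 5918 and 6223 CPM for FTH1. BEST1 was at most 0.656 CPM in VCaP.

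Regulators around NRF2 were read in the same way. BACH1, the repressor of HMOX1, was not called in either line, at −0.28 in PC3 (edgeR adjusted p = 0.186) and −0.07 in VCaP (0.468). The block made a PC3 call of it, at −0.27 (edgeR adjusted p = 0.00727), and likewise of CUL3 (−0.23, 0.0113) and MAFF (0.21, 0.0362). MAFK, a small MAF partner, rose in VCaP by 0.61 (edgeR adjusted p = 0.000482) and was at −0.51 in PC3 (0.0139), a call lost without NSI replicate 3 (0.0547) or siFOXA1 replicate 1 (0.0619). MAFF rose in VCaP by 0.79 (edgeR adjusted p = 0.00567), and MAFG fell there by 0.36 (0.00808). SQSTM1, the autophagy receptor that draws KEAP1 to degradation, fell in VCaP by 0.35 (edgeR adjusted p = 0.000743). In PC3 SQSTM1 was at 0.33 (edgeR adjusted p = 0.0285), a call lost without NSI replicate 1 (0.0707), siFOXA1 replicate 1 (0.0702), siFOXA1 replicate 2 (0.0745) or siFOXA1 replicate 3 (0.0631). CUL3 in VCaP was at 0.45 (edgeR adjusted p = 0.036), a call lost without NSI replicate 1 (0.108), NSI replicate 3 (0.115) or siFOXA1 replicate 3 (0.0995).

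The ATF4 list stands beside SLC7A11, since ATF4 is a further activator of that gene. In PC3 7 of its 11 genes were lower and 0 higher, with a median of −0.32, and the block gave 9 lower. The PC3 count was 3 without NSI replicate 3, siFOXA1 replicate 1 or siFOXA1 replicate 3, and 4 without NSI replicate 2 or with library size alone. In VCaP 7 were higher and 3 lower, with a median of 0.35. DDIT4, a stress-induced inhibitor of mTORC1, fell in PC3 by 0.66 (edgeR adjusted p = 0.00474) and rose in VCaP by 1.33 (0.000277).

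Over all the lists, 27 genes were called in both lines, and 20 of these (74.1%) had opposite signs, beside 981 of 3111 genes (31.5%) over all genes tested. In 14 of the 20 the level was lower in PC3 siFOXA1 and higher in VCaP siFOXA1, among them GSR, AKR1C1, AKR1C2, DDIT4, STEAP3, FLVCR2 and MAFK. In 6 it was higher in PC3 and lower in VCaP, among them SQSTM1, NFE2L3, SOD3, SESN3 and CBR3. The VCaP call of SOD3 was lost with DESeq2 (adjusted p = 0.0862) and, by edgeR, without NSI replicate 1 (0.0835), siFOXA1 replicate 1 (0.0805) or siFOXA1 replicate 3 (0.0603). The PC3 call of SESN3 was lost without NSI replicate 3 (edgeR adjusted p = 0.103), siFOXA1 replicate 1 (0.0585) or siFOXA1 replicate 3 (0.101). That of CBR3 was lost without NSI replicate 1 (edgeR adjusted p = 0.0672), NSI replicate 3 (0.0839), siFOXA1 replicate 1 (0.0659) or siFOXA1 replicate 2 (0.0529), and that of AKR1C1 without siFOXA1 replicate 1 (0.0753) or siFOXA1 replicate 3 (0.0545). Exons of DDIT4 (48.5%), CBR3 (42.2%), SQSTM1 (39.8%), CP (26.3%), MAFK (24.0%), FLVCR2 (23.9%) and STEAP3 (11.0%) overlap genes on the other strand, so their PC3 counts, made without strand, may hold fragments of those genes. All 20 were called by the test of the interaction, which opposite calls in the same libraries make likely, so this adds no separate support. With the PC3 block 43 genes were called in both lines, 28 of them with opposite signs. The opposite count was 9 of 12 without PC3 siFOXA1 replicate 1, 11 of 14 without PC3 NSI replicate 3, 12 of 16 without PC3 siFOXA1 replicate 3 and 16 of 23 with library size alone. The genes called in both lines in the same direction, named after their values were seen, were AKR1C3, CP and PIR (higher) and ATF4, PSAT1, HSF1 and UGDH (lower). In VCaP, CP rests on few reads, with 20 (NSI) and 56 (siFOXA1) counts summed over the libraries of each group. The same holds for SOD3 in VCaP, with 57 and 25 counts. Among the 9 genes, NFE2L2, SLC7A11 and GCLC were negative in PC3 and positive in VCaP, HMOX1, NQO1, GCLM and TXNRD1 were positive in both lines, and SRXN1 and KEAP1 were negative in both, with the PC3 sign of GCLC and KEAP1 changing with the setting as given above.

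**Figure D4:**
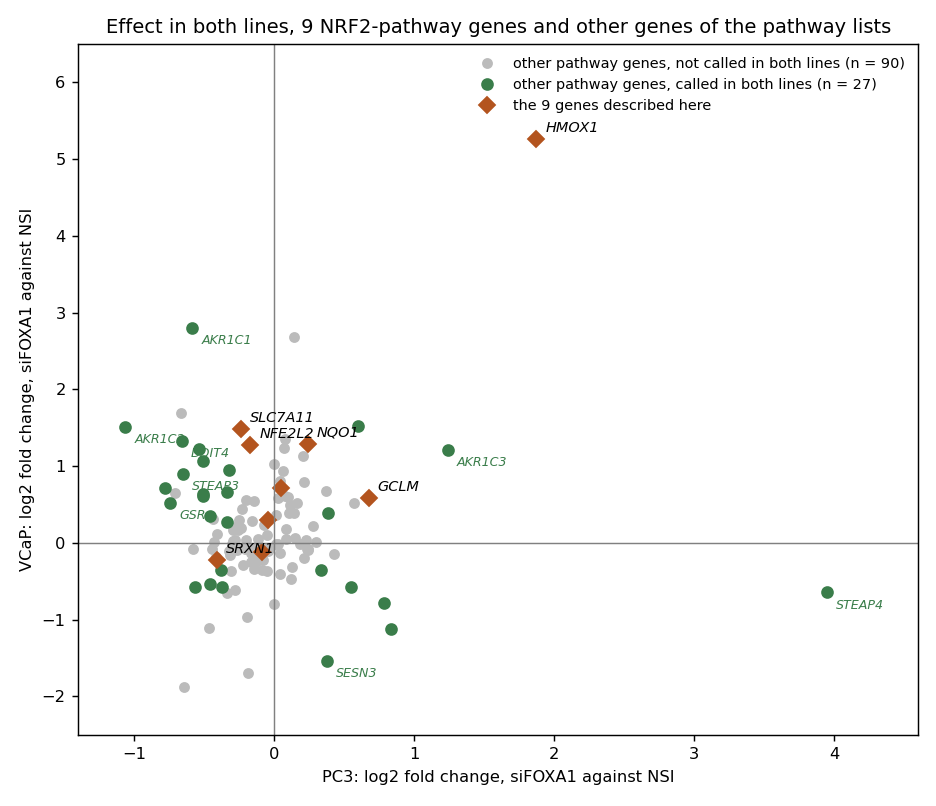
The log2 fold change of siFOXA1 against NSI in PC3 (x axis) and VCaP (y axis) for the 9 genes (diamonds), the 27 further pathway genes called in both lines (green) and 90 others (grey). HMOX1 stands alone at the upper right at 1.87 and 5.26, and most green points lie in the upper left or lower right; STEAP4, labelled after its values were seen, is at 3.95 in PC3 and −0.64 in VCaP.

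The remaining lists are given by their counts. Of the 16 glutathione genes, 0 were higher and 6 lower in PC3 (3 and 9 with the block), and 5 higher and 2 lower of 15 tested in VCaP. The 6 became 1 without siFOXA1 replicate 1, 2 without NSI replicate 2, NSI replicate 3 or siFOXA1 replicate 3, and 3 under library size alone or upper-quartile factors. GPX3, a secreted glutathione peroxidase, fell in VCaP by 1.88 (edgeR adjusted p = 1.47e-05). Of the 14 thioredoxin and peroxiredoxin genes, 1 was higher and 1 lower in PC3 (1 and 5 with the block), and 1 higher and 7 lower in VCaP. Of the 9 genes of KEAP1 and NRF2 turnover, 1 was higher and 0 lower in PC3 (1 and 3 with the block), and 4 higher and 3 lower in VCaP, where the 4 became 2 without NSI replicate 3. Of the 8 NRF2 partners and competitors, 1 was higher and 1 lower in PC3 (3 and 3 with the block), and 2 higher and 3 lower in VCaP.

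Of the 8 haem synthesis genes, 0 were higher and 1 lower in PC3 (2 and 2 with the block), and 4 higher and 1 lower in VCaP. The VCaP 4 became 2 without NSI replicate 1 or 2 and without siFOXA1 replicate 2 or 3. Of the haem breakdown and transport genes, 1 was higher and 1 lower of 9 tested in PC3 (1 and 2 with the block), and 3 higher and 3 lower of 10 in VCaP. Of 11 iron genes tested, 2 were higher and 4 lower in PC3, and 5 higher and 2 lower in VCaP. The PC3 4 became 1 under library size alone or upper-quartile factors and without any library but NSI replicate 2. The VCaP 2 became 1 when any of the same 4 libraries was left out. Of the 4 superoxide and peroxide enzymes, 1 was higher and 1 lower in each line. The lower PC3 call was lost under library size alone, upper-quartile factors or no filter and without any library but NSI replicate 2, and the lower VCaP call with DESeq2 and without NSI replicate 1, siFOXA1 replicate 1 or siFOXA1 replicate 3. Of the 8 heat shock genes, 0 were higher and 1 lower in PC3 (0 and 4 with the block), and 3 higher and 2 lower in VCaP. Without siFOXA1 replicate 1, the single PC3 calls of the turnover, thioredoxin, haem synthesis and heat shock lists were lost.

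The genes most like HMOX1 were ranked by Pearson r over the 12 libraries, with log2 CPM centred on each line, among the 9880 genes whose mean reached 5 CPM in both lines. The closest were PLA2G16 (r = 0.993), TMEM51 (0.992), RIT1 (0.991), ORAI3 (0.991) and STX3 (0.990), and 1 of these 5 was also in the first 5 by Spearman's rho. Of the other 8 genes described here, NQO1 was the most like HMOX1 (r = 0.97, rank 44), followed by TXNRD1 (0.92, rank 232) and NFE2L2 (0.86, rank 519). GCLM and SLC7A11 were both at 0.83 and GCLC at 0.74, while KEAP1 (−0.42) and SRXN1 (−0.69) ran against it. The 12 points share the siRNA groups and the libraries, so r is a description and has no p. Centred on each line, r largely restates the siFOXA1 against NSI values known when the genes were chosen. In VCaP, HMOX1 (0.450 CPM in NSI, 17.3 in siFOXA1) and NQO1 (3.77 and 9.25) reached the 5 CPM limit only through siFOXA1. The ranks therefore add no separate support.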

How the data were processed

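Gene counts of 12 RNA-seq libraries were used. The authors deposited estimated counts (expected counts), per the file headers made with featureCounts 2.0.0 from exons of the GENCODE 28 basic annotation on GRCh37, with fragments of several places or genes divided among them, strand ignored in PC3 and reverse-strand in VCaP. STAR 2.7.3a is named in the submitters' processing notes. The counts were not normalized. They were rounded and fitted with edgeR 4.0.16 (R 4.3.3; TMM, filterByExpr, two-sided quasi-likelihood test, Benjamini-Hochberg over all genes tested, calls at 0.05). Each line was fitted on its 6 libraries, the difference of effects on all 12, and the baseline on the NSI libraries. CPM used TMM factors within each line (0.956 to 1.04), so they are set side by side between lines only as levels. TPM used the deposited exon lengths, and TPM of PC3 and VCaP differ in the library kit and the counting by strand. The standard error is the log2 fold change divided by the square root of F. The spread between replicates, as edgeR's common coefficient of variation, came to 14.9% for PC3 and 9.89% for VCaP.

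The 9 genes and all lists were chosen with earlier results of these data known. Other named genes were a fixed set (HMOX2, BLVRA, BLVRB, FTH1, FTL, BACH1, MAFF, MAFG, MAFK, CUL3, SQSTM1) and, in each line, the 5 largest rises and 5 largest falls of the lists with a call, no overlap of the groups and 5 CPM or more on average. The marker lists used were epithelial, macrophage, fibroblast, endothelial and erythroid, and 1 further list is not reported here. Fibroblast markers summed to 24.0 to 28.1 CPM (NSI) and 40.5 to 45.1 (siFOXA1) in PC3 and 10.9 to 19.5 and 1.33 to 5.49 in VCaP, and endothelial markers to at most 4.56 CPM in any library.

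Replicate pairs differed by more than sampling noise (chi-square per degree of freedom 9.77 to 141). Deviations of same-numbered PC3 libraries from their group means correlated at 0.662, 0.721 and 0.303 over genes averaging 5 CPM or more, a limit set after a first look, so the PC3 numbers were taken to pair the libraries. The labels do not say what same-numbered libraries share, so results with the block rest on this assumption. The fits were tested on simulated data. Alternatives were DESeq2 1.42.0, other scalings, no filter, the replicate block, the fit of all 12 libraries and leaving out each library.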

Additional observations from a re-analysis of the deposited data

Results flagged for a closer look

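The effect of siFOXA1 differed between the lines by edgeR's test of the interaction for 20 of the further pathway genes named here. Each value is the VCaP effect minus the PC3 effect (log2), and the adjusted p is that of edgeR over 30450 genes, of which 22.1% were called. HMOX2, BLVRA, BLVRB, BACH1, MAFG, AKR1C3, CP and GPX3 were not called. BLVRA was called with the replicate block in both lines (adjusted p = 0.02 by edgeR) and without PC3 NSI replicate 2 (0.00881). GPX3 was called with that block (0.0276) or no filter (0.0228). MAFG was called with library size alone (0.0364) and that block (0.0347), and without PC3 NSI replicate 3 (0.0476) or PC3 siFOXA1 replicate 2 (0.0409). Apart from the fixed set, the genes were named for large effects within a line in these same libraries. Such a choice favours a difference between the lines, so their number is not compared with that share. More positive in VCaP were the NRF2 targets AKR1C1 (3.37, adjusted p = 8.29e-08), AKR1C2 (2.57, 9.16e-07), CYP4F11 (2.22, 0.022) and GSR (1.25, 1.29e-06). The same held for the haem and iron genes ABCG2 (4.62, adjusted p = 0.000389), STEAP3 (1.54, 3.74e-07), FLVCR2 (1.49, 5.56e-06) and FTH1 (1.27, 0.005). It held as well for DDIT4 (1.97, adjusted p = 1.54e-05), MAFK (1.10, 8.14e-05), CUL3 (0.66, 0.0238) and MAFF (0.56, 0.0345). More negative in VCaP were SOD3 (−1.97, adjusted p = 0.00203), SESN3 (−1.93, 1.76e-06), CBR3 (−1.58, 9.53e-05), NFE2L3 (−1.14, 8.91e-05), FTL (−0.81, 0.00232), FLVCR1 (−0.79, 0.000969), SQSTM1 (−0.70, 0.000448) and SLC48A1 (−0.59, 0.00151).

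ABCG2 and CYP4F11 were nearly absent from PC3, with 7 and 8 counts summed over the NSI libraries, so their PC3 effects rest on few reads. SOD3 had 57 (NSI) and 25 (siFOXA1) summed counts in VCaP, so its VCaP effect also rests on few reads. The difference for CYP4F11 was lost without PC3 NSI replicate 1 (adjusted p = 0.204 by edgeR), siFOXA1 replicate 1 (0.0587) or siFOXA1 replicate 3 (0.058). Those for MAFF and CUL3 were lost with library size alone (adjusted p = 0.0502 and 0.0554 by edgeR) and without any of 7 libraries each, at adjusted p up to 0.125 and 0.0872. The PC3 part of the FTH1 difference is uncertain, because BEST1, which overlaps FTH1, had means of 4196 (NSI) and 4267 (siFOXA1) CPM in PC3. The line cannot be told apart from dose, medium, kit and the counting by strand.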

How the results depend on the processing

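The HMOX1 difference between the effects ranged from 3.10 to 3.53 over the fits that leave out 1 library. For the 9 genes, 380 of 396 alternative siRNA values moved by less than the spread between replicates and 16 moved by more. The PC3 count of 7344 genes was 11333 with the replicate block and 3963 (without siFOXA1 replicate 1) to 7628 with a library left out, and the count of 39 pathway genes was 70 and 13 to 38. For VCaP the numbers were not taken to pair the libraries (correlations 0.177, −0.051 and 0.407), though replicate 3 was above that of PC3 (0.303). The VCaP block gave 11474 genes and 77 pathway genes. Of 1250 alternative values of other named genes, 41 lost and 16 gained a call and 24 changed sign. In PC3 HMOX2 was at 0.031 with library size alone, 0.0038 with upper-quartile factors and −0.14 to 0.14 with a library left out. BLVRB then ranged from −0.049 to 0.35 and FTH1 from −0.039 to 0.17. MAFG was at 0.039, 0.0093 and −0.095 to 0.00074 under the same settings as HMOX2. FTL was at 0.0052 with DESeq2 or its size factors, 0.039 in the fit of 12 libraries, 0.085 with library size alone, 0.00033 with the block, 0.057 with upper-quartile factors and −0.11 to 0.14 with a library left out. BLVRB in VCaP ranged from −0.0044 to 0.099 with a library left out. The differences between effects then ranged from −0.040 to 0.17 for HMOX2, −0.28 to 0.014 for BLVRB and −0.22 to 0.024 for AKR1C3. In the NSI comparison, upper-quartile factors gave GCLM 0.20, GCLC 0.12 and SRXN1 0.27. SRXN1 was also at 0.051 with DESeq2 or its size factors, 0.032 with library size alone and −0.077 to 0.042 with a library left out. GCLM (−0.22) and GCLC (−0.27) were called without PC3 NSI replicate 2, and GCLC (−0.33) without the filter. The cause was not tested for any of these. Counts by list and of opposite signs under alternatives were added after seeing the data. At 22 to 28 counts a library, VCaP NSI limits the precision of the HMOX1 fold.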
